A study of Mus musculus with 2 samples.

Results

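Genes that encode 7 core transcription factors of the epithelial-mesenchymal transition (EMT) were followed in mouse cells with and without Dicer: Snai1, Snai2, Twist1, Twist2, Zeb1, Zeb2 and Foxc2. They were taken by their symbols, and all 7 were found among the 23227 symbols of the deposited comparison. The genotypes compared, 2 in all, were Dicer -/- cells (knockout, KO) and Dicer f/f cells (WT), which carry floxed and intact Dicer alleles. Both are immortalised monoclonal lines of adult mesenchymal stem cells, a culture that the labels also call fibroblasts. They were grown in alpha-MEM with 10% fetal bovine serum and lysed before confluence, and polyadenylated RNA was sequenced. Each line comes from 1 clone, so genotype and clone cannot be told apart. The labels give 1 sample per genotype, and the deposited mean of each genotype was found to combine 2 libraries, called here the deeper and the shallower one.

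The EMT is the change by which epithelial cells give up their junctions and polarity and take on the shape and motility of mesenchymal cells. SNAIL and ZEB proteins are zinc finger repressors that bind E-boxes in promoters such as that of E-cadherin, TWIST proteins are basic helix-loop-helix (bHLH) factors that act as dimers, and FOXC2 is a forkhead factor of mesenchyme and vessel development. Cells of mesenchymal origin express several of these genes without any transition. Mature microRNAs are released from their precursors by Dicer. MicroRNAs of the miR-200 family are known to repress Zeb1 and Zeb2 in a double negative loop, because ZEB proteins in turn repress the genes of the miR-200 family. Mature microRNAs are not measured in polyA libraries.

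The recovered libraries held 15718369 and 14969532 reads in genes in KO, and 15369250 and 14135422 in WT. Values below are reads after division by the size factor of each library (normalised reads), and 3 reads in a library equal 2.76 to 3.36 of them. Dicer1 itself averaged 565 normalised reads in KO (573 and 557), against 873 in WT (804 and 943). Its ratio of 0.647 did not reach the threshold used here, and reads over the whole gene do not check the deleted part. The labelled cell type was read against 13 mesenchymal markers, of which 12 were expressed above the minimum in these cells, while Thy1 had 0 reads in all 4 libraries. The defining epithelial marker Epcam and the pan-haematopoietic marker Ptprc were at or near 0. In bulk RNA, fewer cells that express a gene and less RNA per cell cannot be told apart.

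The microRNA sequences that matter for these genes are shown first, because the paralogs differ in the sites they carry. The mature sequences are from RefSeq (GRCm38.p6), with the seed, bases 2 to 8, in capitals. The pair miR-200b and miR-141 belong to the same family but have seeds that differ by 1 base.
mmu-miR-200b-3p: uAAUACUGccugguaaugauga
mmu-miR-141-3p: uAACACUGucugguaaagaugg
mmu-miR-203-3p: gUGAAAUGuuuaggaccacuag
mmu-miR-30a-5p: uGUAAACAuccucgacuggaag
mmu-miR-182-5p: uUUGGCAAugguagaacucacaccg

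Matches of 7 bases to these seeds and to those of the other microRNAs searched, 21 in all, were sought on the sense strand of each gene's longest 3′ UTR (GENCODE M21, 20957 UTRs). A match is a description of the letters and was not tested as a binding site. Zeb2 held 5 matches to the miR-200b seed (CAGTATT) and 4 to the miR-141 seed (CAGTGTT) in a UTR of 4941 bases. As many miR-200b matches were present in 0.225% of the 1334 UTRs within 25% of that length, against 36.1% with at least 1. Both shares count Zeb2 itself. The 5 Zeb2 matches lie on the minus strand of chromosome 2 and are given with 8 bases on each side, the match in capitals (GRCm38).
Zeb2 site 1, chr2:44988166-44988188: ccatacatCAGTATTttattatt
Zeb2 site 2, chr2:44988101-44988123: cagtgcatCAGTATTacgattcc
Zeb2 site 3, chr2:44987739-44987761: acccgtgtCAGTATTagacgact
Zeb2 site 4, chr2:44987654-44987676: aattttgtCAGTATTacaccaaa
Zeb2 site 5, chr2:44987520-44987542: gtagtgtaCAGTATTatagttct

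Zeb1 held the same numbers, 5 matches to miR-200b and 4 to miR-141, in a shorter UTR of 2401 bases. As many as its 5 matches to miR-200b were present in 0.0303% of the 3306 UTRs of like length, a share made up by Zeb1 alone. Both ZEB genes therefore carry the same number of miR-200 family matches.

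The SNAIL paralogs shared matches to miR-200b and miR-30a and differed in the others. Snai1, with a 3′ UTR of 731 bases, held 1 match each to miR-200b, miR-30a, miR-34a and miR-125b. Snai2, with 1089 bases, held 1 match each to miR-203, miR-200b, miR-141, miR-30a and miR-218. A match to each of the 5 was present in 9.49% to 13.9% of UTRs of like length. The miR-141 and miR-30a matches of Snai2 share bases, so that both cannot be read as separate places. The Snai2 matches lie on the plus strand of chromosome 16.
Snai2 miR-203 site, chr16:14708698-14708720: tgccaaacCATTTCAaccaaagg
Snai2 miR-200b site, chr16:14708715-14708737: caaaggaaCAGTATTtcttctta
Snai2 miR-141 site, chr16:14708299-14708321: ggcgcaacCAGTGTTtactcaaa
Snai2 miR-30a site, chr16:14708302-14708324: gcaaccagTGTTTACtcaaacag

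The TWIST genes and Foxc2 had few matches. Twist1 (UTR of 700 bases) had 1 match, to miR-182, which was present in 5.26% of UTRs of like length. Twist2 (1885 bases) had 1 match to miR-182, present in 13.5%, and 1 to miR-15a, present in 27.1%. Foxc2 (796 bases) had 1 match to miR-141, present in 9.99%. All 3 genes lie on the plus strand.
Twist1 miR-182 site, chr12:33959483-33959505: aagaggtcTTGCCAAtcagccac
Twist2 miR-182 site, chr1:91802322-91802344: aaggtcttTTGCCAAgggtatcc
Foxc2 miR-141 site, chr8:121118839-121118861: tgtgatctCAGTGTTgtatttac

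**Figure D1:**
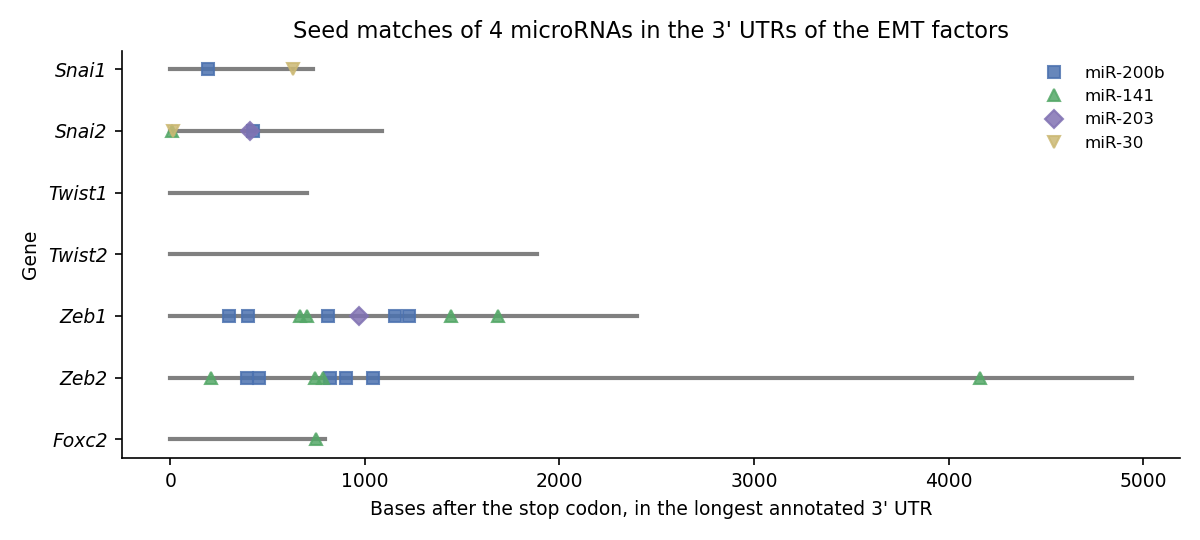
Places of 7-base seed matches along the 3′ UTR of each EMT factor, as bases after the stop codon, with a grey bar for the UTR and a marker for each match to miR-200b, miR-141, miR-203 or miR-30 (matches to other seeds are not drawn). Zeb1 and Zeb2 each carry 5 matches to miR-200b and 4 to miR-141, while Snai1 and Snai2 each carry 1 match to miR-200b.

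Calls required a ratio of KO over WT means that was 2 or more (higher) or 0.5 or less (lower), with a 95% counting interval that left out 1, among 11710 genes with a mean of at least 20 normalised reads. This rule called 8.92% of those genes higher in KO and 8.56% lower. All 7 EMT factors passed the minimum. Of them 1 was called higher (Twist2), 2 were called lower (Snai2 and Foxc2) and 4 were called neither (Snai1, Twist1, Zeb1 and Zeb2). The KO mean of Foxc2, 14.6 normalised reads, was under the minimum, so Foxc2 passed it only through WT. A count of lower factors that includes Foxc2 is therefore no measure of the 7. The median log2 ratio of the 7 was 0.15, against -0.01 over all tested genes.

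The authors' deposited table, at an adjusted p of 0.1, gave 1 of the 7 higher in KO (Twist2) and 1 lower (Foxc2), where 5.56% of tested genes were higher and 5.34% lower. A moderated test with limma on the recovered libraries, at a Benjamini-Hochberg adjusted p of 0.05, also gave 1 higher and 1 lower, and the higher gene was Snai1 in place of Twist2. It called 4.61% of tested genes higher and 4.14% lower. Both KO libraries stood above both WT libraries for 3 factors (Snai1, Twist2 and Zeb1) and below them for 3 (Snai2, Zeb2 and Foxc2), against 30.4% and 28.8% of tested genes. Foxc2 was thus lower by each of these criteria, and Twist1 met none. The genotypes did not overlap for 6 of the 7 genes, but most tested genes also met that order of 2 libraries against 2, in either direction.

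**Figure D2:**
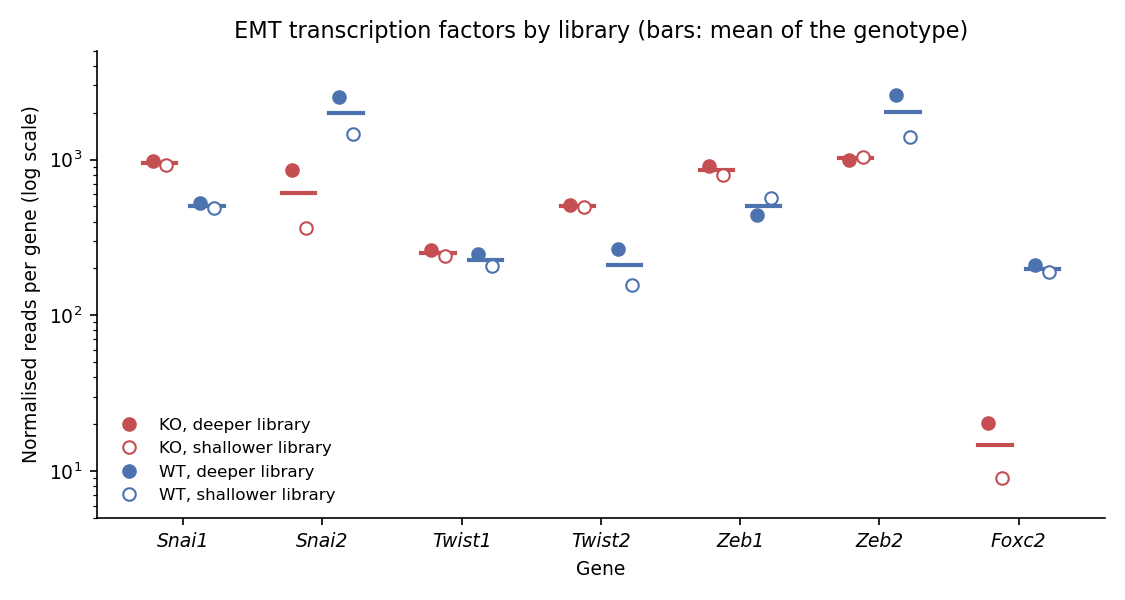
Normalised reads (log axis) of the 7 EMT factors in the 2 KO and the 2 WT libraries, each point 1 library and each bar the deposited mean of the genotype. Foxc2 stands at 20.2 and 8.96 in KO and at 209 and 188 in WT, and the Twist1 libraries of both genotypes overlap.

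The SNAIL paralogs stood on opposite sides. Snai1, a zinc finger repressor of the E-cadherin gene, had 984 and 929 normalised reads in KO, against 526 and 487 in WT. Both KO libraries were high and both WT libraries were low, with libraries of the same genotype within 1.08-fold of each other. The ratio was 1.89 (95% counting interval 1.75 to 2.04), just under the threshold of 2. The adjusted p in the authors' deposited table was 0.140, and that of limma was 0.0393 (log2 difference 0.92 ± 0.16 SE).

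Snai2, also known as Slug, a related repressor with roles in neural crest and mesenchymal cells, had 853 and 366 normalised reads in KO, against 2535 and 1461 in WT. Each KO library was lower than each WT library, and libraries of the same genotype were 2.33-fold apart in KO and 1.74-fold apart in WT. The mean was 3.28-fold lower in KO (counting interval 3.08 to 3.49). Taken library against library, the fold ranged from 1.71 to 6.92, and without the deeper KO library the mean was 5.46-fold lower. With 0.131 as its adjusted p in the authors' deposited table, it was not called there, and the adjusted p of limma was 0.0949. The counting intervals given here cover counting error only, and the spread between libraries was wider for this gene.

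The ZEB paralogs also stood apart. Zeb1, a repressor with zinc finger clusters at both ends of the protein, had 911 and 797 normalised reads in KO, against 439 and 563 in WT. Every KO library was above every WT library. The ratio was 1.71 (1.58 to 1.85), and it did not reach the threshold, with an adjusted p of 0.265 in the authors' deposited table and 0.0870 with limma.

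Zeb2, the paralog also called SIP1, had 993 and 1040 normalised reads in KO, against 2613 and 1404 in WT. The KO libraries were alike and low, while the WT libraries were 1.86-fold apart and both higher. The mean in KO was 1.98-fold lower (1.87 to 2.08), a ratio of 0.506 that lies just outside the threshold of 0.5. The ratio became 0.389 when the shallower WT library was left out, and 0.495 when the shallower KO library was, and both would be called lower. Without the deeper WT library it was 0.724. The authors' deposited table lists an adjusted p of 0.481, and limma gave 0.150.

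Of the TWIST paralogs, Twist2 was called higher in KO and Twist1 was called neither. Twist2, a bHLH factor of dermal and other mesenchyme also known as Dermo1, had 509 and 499.5 normalised reads in KO, against 266 and 157 in WT. Both KO libraries were high and nearly equal, and the WT libraries were both low but 1.70-fold apart. The ratio was 2.38 (2.13 to 2.68), with an adjusted p of 0.0326 in the authors' deposited table and 0.0708 with limma. The call rested on the shallower WT library: without it the ratio was 1.89, under the threshold of 2, and without the deeper WT library it was 3.21.

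Twist1, the bHLH factor of head mesenchyme and limb mesoderm, had 262 and 242 normalised reads in KO, against 249 and 206 in WT. The genotypes overlapped. The ratio was 1.11 with a counting interval of 0.974 to 1.26, with an adjusted p of 1 in the authors' deposited table and 0.702 with limma.

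Foxc2 had the ratio farthest from 1 of the 7. It had 20.2 and 8.96 normalised reads in KO, from 22 and 9 reads, against 209 and 188 in WT, from 217 and 168 reads. Both KO libraries were far below both WT libraries. The mean was 13.6-fold lower in KO (counting interval 9.44 to 20.3), and library against library the fold ranged from 9.31 to 23.4. The authors' deposited table gave an adjusted p of 2.01e-09, and limma gave 0.0199 (log2 difference -3.78 ± 0.48 SE). A ratio this low or lower was seen for 161 tested genes, or 1.37%. The KO libraries rested on few reads, and without the deeper of them the mean was 22.2-fold lower.

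**Figure D3:**
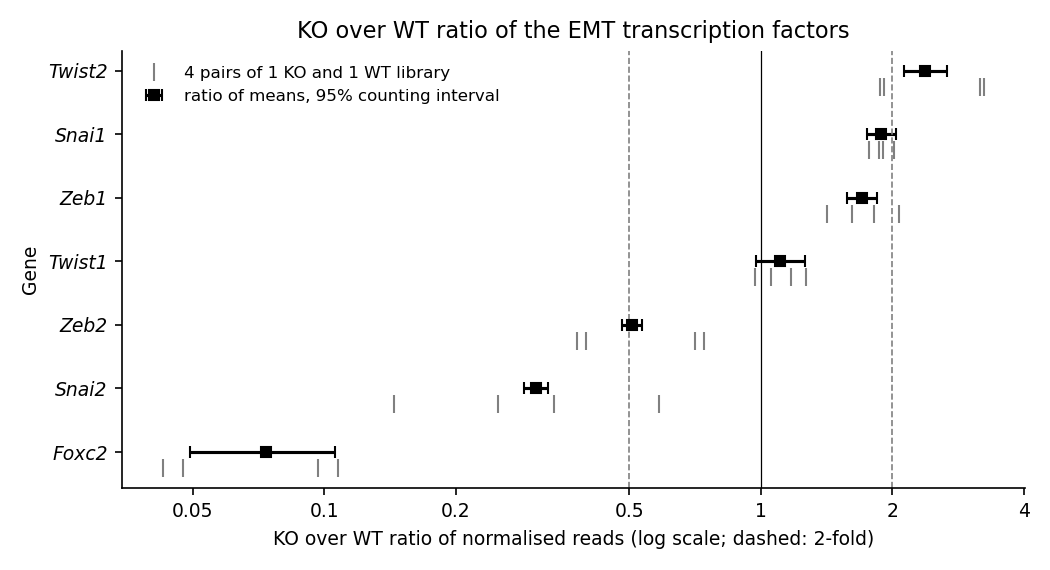
Ratio of KO over WT (log axis) for the 7 EMT factors, in order of the ratio, with squares and bars for the ratio of means and its 95% counting interval and grey ticks for the 4 pairs of 1 KO and 1 WT library. Twist2 at 2.38 lies above the dashed line at 2, Snai2 at 0.305 and Foxc2 at 0.0734 lie below that at 0.5, and the ticks of Snai2 and Zeb2 spread wider than their intervals.

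Levels of different genes were set side by side per kilobase (kb) of the longest principal transcript. These lengths were 1621 bases for Snai1, 2021 for Snai2, 1628 for Twist1, 2525 for Twist2, 5801 for Zeb1, 9124 for Zeb2 and 2725 for Foxc2. In KO the order of mean levels, in normalised reads per kb, was Snai1 (590), Snai2 (302), Twist2 (199.6), Twist1 (155), Zeb1 (147), Zeb2 (111) and Foxc2 (5.36). In WT, Snai2 came first (989), then Snai1 (312), Zeb2 (220.1), Twist1 (140), Zeb1 (86.3), Twist2 (83.8) and Foxc2 (72.9). Neighbours whose libraries overlapped were Snai2 and Twist2, and Twist1 and Zeb1, in KO, and Zeb1 and Twist2, and Twist2 and Foxc2, in WT. Per kb, each family therefore had another leading member in KO than in WT, with Snai1, Zeb1 and Twist2 above their paralogs in KO. For the ZEB and TWIST pairs this rests on the lengths. Before division by length, Zeb2 was above Zeb1 in KO as well (993 and 1040 against 911 and 797). Twist2 was then above Twist1 in the deeper WT library too (266 against 249).

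Within a family, the share of one paralog in the sum per kb does not depend on the scaling of the library. Snai1 made up 59.0% and 76.0% of the SNAIL pair in KO, against 20.6% and 29.3% in WT. Zeb1 made up 59.0% and 54.7% of the ZEB pair in KO, against 20.9% and 38.7% in WT. Twist2 made up 55.6% and 57.1% of the TWIST pair in KO, against 40.8% and 32.9% in WT. In all 3 families the libraries of the genotypes did not overlap in this share. Per kb, the named paralog was the minor one in each WT library and the major one in each KO library. In each pair the paralog named is the one with the higher ratio of KO over WT, so the shared direction follows from that naming. How often other gene pairs separate in this way was not computed. Among single tested genes, 30.4% had both KO libraries above both WT libraries and 28.8% had them below.

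The summed level of each family per kb was read as well. The SNAIL pair summed to 1029 and 755 normalised reads per kb in KO, against 1579 and 1023 in WT, and these ranges overlapped. The ZEB pair summed to 266 and 251 in KO, against 362 and 251 in WT, where the shallower libraries were alike. The TWIST pair summed to 362 and 346 in KO, against 258 and 189 in WT, with both KO libraries higher. The lengths come from 1 annotated transcript a gene, which may not be the one these cells use. Another length would shift the shares of both genotypes in the same direction, so which paralog leads in a library depends on it.

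**Figure D4:**
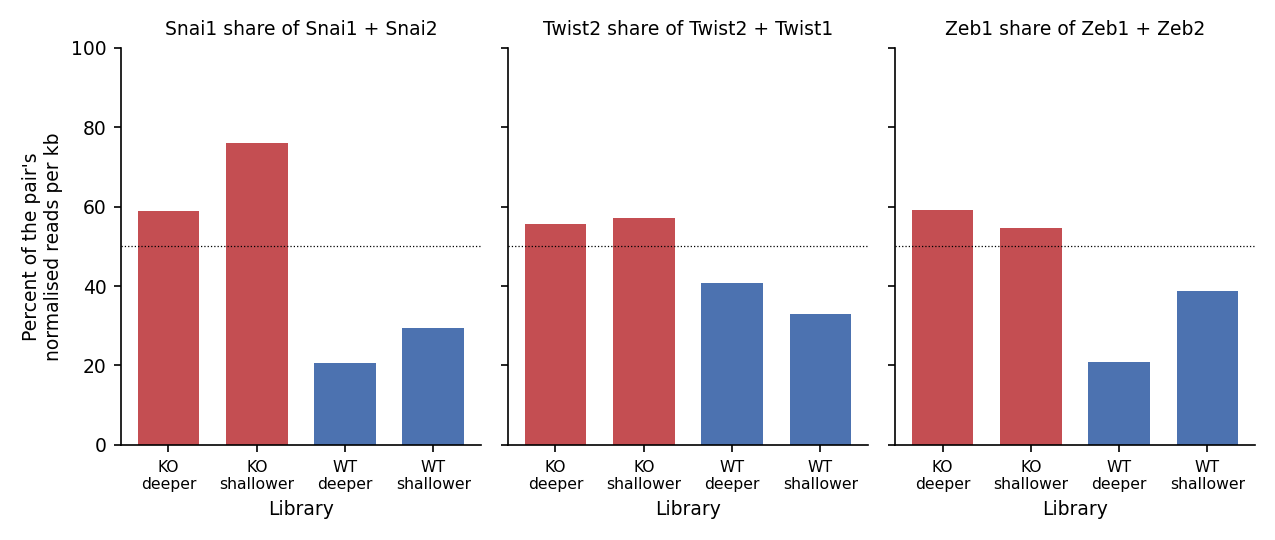
Share of Snai1, Zeb1 and Twist2 in the summed level per kb of their paralog pair, in percent, for each KO and WT library. The KO libraries lie between 54.7% and 76.0% and the WT libraries between 20.6% and 40.8%, on either side of the line at equal parts.

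The 3 genes nearest to each called factor in their pattern over the 4 libraries were found by the root mean square difference of centred log2 values. For Snai2 these were Hipk2 (0.0257), Sorbs2 (0.0497) and Nacc2 (0.0772), and Hipk2 had 292 and 126 normalised reads in KO, against 882 and 525 in WT. For Twist2 they were Junb (0.0265), Cacna1a (0.0325) and Pmp22 (0.0375). The nearest of them, Junb, a component of the AP-1 transcription factor, had 4769 and 4520 in KO, against 2472 and 1411 in WT. For Foxc2 they were Apcdd1 (0.0689), Insc (0.135) and Vash1 (0.141). Apcdd1, a membrane inhibitor of Wnt signalling, had 40.5 and 18.9 normalised reads in KO, against 370.1 and 351 in WT. These genes share the libraries and their depth with the factors, and the likeness is a description.

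Other transcription factors tied to the EMT were called in both directions. Of 18 listed, 13 were tested, and 1 was called higher in KO, 4 lower and 8 neither, with a median log2 ratio of -0.36 against -0.01 over all tested genes. Over all tested genes 8.92% were called higher and 8.56% lower. The authors' deposited table gave 1 higher and 3 lower among the 13, against 5.56% and 5.34% of all tested genes. The KO means of Msx2, Klf8 and Msx1 were under the minimum, so these genes passed it only through WT. The counts of lower calls are therefore no measure of the list. Msx2, a homeobox factor downstream of BMP signalling, had 2.76 and 1.99 normalised reads in KO, from 3 and 2 reads, against 212 and 165 in WT. It was 79.3-fold lower, with an adjusted p of 3.04e-16 in the authors' deposited table. With so few KO reads that fold is loosely set, and the counting interval of the ratio was 0.00407 to 0.0297. The Msx2 paralog Msx1 had 11.0 and 6.97 in KO, against 58.8 and 51.6 in WT, 6.13-fold lower, with an adjusted p of 0.0156 in that table.

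Klf8, a zinc finger repressor of E-cadherin, had 5.52 and 4.98 normalised reads in KO, from 6 and 5 reads, against 121 and 106.5 in WT. It was 21.7-fold lower (adjusted p of 2.72e-08 in the authors' deposited table), with a counting interval of the ratio of 0.0226 to 0.0840. Sox9, a factor of cartilage and neural crest that acts with SNAI2, had 1428 and 806 in KO, against 379 and 99.8 in WT, and was 4.67-fold higher (adjusted p 0.0712 in the same authors' deposited table). The WT libraries of Sox9 were far apart. Its ratio was 2.95 without the shallower and 11.2 without the deeper of them. With 1 library left out at a time, the list gave 1 to 2 higher and 3 to 5 lower.

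Among the partners and inhibitors of the TWIST proteins, Id1 and Id3 were called lower in KO, and Id2 had higher values. Of 6 tested bHLH partners and ID inhibitors, 0 were called higher and 2 lower, against 8.92% and 8.56% of all tested genes. Their median log2 ratio was -0.70. ID proteins lack a DNA binding region and hold E proteins, the partners of TWIST, in inactive dimers. Id1 had 749 and 534 normalised reads in KO, against 2406 and 1405 in WT, and was 2.97-fold lower. Id3 had 1767 and 1043 in KO, against 4513 and 2410 in WT, and was 2.46-fold lower. The adjusted p in the authors' deposited table was 0.103 for Id1 and 0.361 for Id3, and Id3 was no longer called without the deeper WT or the shallower KO library, at 1.72-fold and 1.96-fold lower. Id2, another of these inhibitors, had 1696 and 1511 normalised reads in KO, against 900.3 and 845 in WT. Its ratio of 1.84 did not reach the threshold, with an adjusted p of 0.0408 with limma and 0.150 in the authors' deposited table. The test with limma gave 1 higher (Id2) and 1 lower (Tcf3) in this list, where 4.61% of all tested genes were higher and 4.14% lower.

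Tcf3, which encodes the E proteins E12 and E47, had 1315 and 1344 normalised reads in KO, against 2288 and 2212 in WT. Its libraries were tight and did not overlap, with a ratio of 0.591 that did not reach the threshold. The adjusted p was 0.0457 with limma and 0.253 in the authors' deposited table.

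Corepressors and histone modifiers that SNAIL and ZEB proteins recruit were all within the thresholds. Of 19 tested, 0 were called higher and 0 lower, against 8.92% and 8.56% of all tested genes. The authors' deposited table also gave 0 and 0, against 5.56% and 5.34%. Their median log2 ratio was -0.23. At an unadjusted p of 0.05 the authors' deposited table gave 0 higher and 1 lower, where 9.39% of tested genes were higher and 9.98% lower. At that unadjusted p limma gave 2 higher and 4 lower of the 19, where 14.8% of tested genes were higher and 14.2% lower. The test with limma called 1 lower, against 4.14% of all tested genes. That gene was Ctbp1, a corepressor bound by ZEB proteins. Ctbp1 had 2206 and 2539 normalised reads in KO, against 4309.7 and 4222 in WT, a ratio of 0.556, with an adjusted p of 0.0460 with limma and 0.152 in the authors' deposited table.

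Genes that control the stability of SNAIL and TWIST proteins gave 1 call in 14, which was lower. Of all tested genes, 8.92% were called higher and 8.56% lower. The median log2 ratio of the 14 was 0.27. Pak1, a kinase that phosphorylates SNAI1, had 240 and 219.9 normalised reads in KO, against 553 and 577 in WT. Both KO libraries were low, and the gene was 2.46-fold lower with an adjusted p of 0.0184 in the authors' deposited table. Protein levels were not measured here.

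Among the ligands, receptors and regulators that are known to induce the EMT factors, 25 of 30 were tested, and 5 were called higher, 4 lower and 16 neither, with a median log2 ratio of 0.48. Among all tested genes the rule called 8.92% higher and 8.56% lower. The authors' deposited table gave 6 inducers higher and 2 lower, against 5.56% and 5.34% of all tested genes. Hmga2, a chromatin protein reported to induce Snai1 and Twist1 and a let-7 target in mouse, had 4753 and 4476 normalised reads in KO, against 386 and 304 in WT. Both KO libraries were high, and the gene was 13.4-fold higher with an adjusted p of 5.42e-19 in the authors' deposited table. Met, the receptor of hepatocyte growth factor, had 2731 and 2755 in KO, against 451 and 522 in WT, 5.64-fold higher, with an adjusted p of 2.53e-09 in that authors' deposited table.

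Its ligand Hgf had 323 and 173 normalised reads in KO, against 64.6 and 6.73 in WT, a ratio of 6.96 with an adjusted p of 0.0402 in the authors' deposited table. The WT libraries of Hgf differed widely, and the ratio was 3.84 without the shallower and 36.9 without the deeper of them. Gli2, a transcription factor of Hedgehog signalling, had 135 and 124 in KO, against 20.2 and 16.8 in WT, 7.01-fold higher (adjusted p of 7.40e-05 in the authors' deposited table). Its WT mean of 18.5 was under the minimum, so Gli2 passed only through KO, which limits the count of inducers called higher. Wnt5a, a ligand of non-canonical Wnt signalling, went the other way, with 21.2 and 38.8 in KO against 483 and 517 in WT, 16.7-fold lower (adjusted p of 1.13e-15 in the authors' deposited table). The inducers thus held calls in both directions.

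Most of the epithelial genes listed as repressed in an EMT were hardly detected. Of 33 listed, 23 were below the minimum, and 17 had at most 10 normalised reads in every library. Cdh1, which encodes E-cadherin, had 0.920 and 0 normalised reads in KO, against 1.93 and 4.48 in WT, all near the value of 3 reads. Epcam had 0 reads in all 4 libraries. Both genes, which code for adhesion proteins of epithelia, were thus at or near 0 in either genotype.

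Of the 10 epithelial genes tested, 7 were called higher in KO, 0 lower and 3 neither, where 8.92% of all tested genes were higher and 8.56% lower. The authors' deposited table gave 5 higher and 0 lower, against 5.56% and 5.34%. For 4 of the 7 called higher the WT mean was under the minimum, so they passed it only through KO, and the count of 7 is no measure of the list. Elf3, an ETS factor of epithelia, had 52.4 and 42.8 normalised reads in KO, against 0 reads in both WT libraries. It was at least 15.2-fold higher, taking 3 reads in each WT library as the floor, and at least 13.7-fold higher without the deeper KO library. Pard6b, a polarity protein, had 209.7 and 142 in KO, against 10.6 and 14.6 in WT, 14.0-fold higher with an adjusted p of 4.82e-08 in the authors' deposited table.

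Jup, the junction protein plakoglobin, which mesenchymal cells also express, had 1704 and 1044 normalised reads in KO, against 329 and 191 in WT. It was 5.29-fold higher, with an adjusted p of 0.00471 in the authors' deposited table. Spint1, an inhibitor of membrane serine proteases, had 187 and 133 in KO, against 31.8 and 31.4 in WT, 5.06-fold higher (adjusted p of 3.27e-04 in the authors' deposited table).

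Markers of other cell types were read beside these genes. Of the 10 epithelial markers, 1 was tested and was called neither, and their summed level was 35.9 and 57.7 normalised reads in KO, against 19.3 and 74.0 in WT. Of the 5 mesothelial markers, 1 was tested and called higher, Msln, the surface protein mesothelin. It had 164 and 408 normalised reads in KO, against 0.964 and 0 in WT, and passed the minimum only through KO. The mesothelial markers summed to 166 and 419 in KO, against 31.8 and 17.9 in WT, and the KO sums were almost wholly Msln. The keratin Krt19 had 1.84 and 8.96 in KO, against 30.8 and 17.9 in WT, the opposite direction, and was below the minimum. The defining markers Wt1, Upk3b and Lrrn4 had 0 to 2 reads in each library. Their part in the result for the epithelial genes was not tested. Of 6 haematopoietic and 5 endothelial markers, 0 passed the minimum, with summed levels of 5.52 to 12.9 and of 17.5 to 20.9 in KO, against 5.78 to 7.85 and 9.64 to 11.2 in WT. Skeletal muscle markers, relevant since TWIST1 acts in muscle precursors, summed to 0.920 and 0 in KO, against 0.964 and 0 in WT. Neural crest and melanocyte markers summed to 107 and 96.5 in KO, against 129 and 131 in WT. Most of these last sums was Mitf, with 85.5 and 74.6 in KO, against 103 and 98.7 in WT. Sox10 had 0 reads in each library.

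Mesenchymal genes that are raised in an EMT were called in both directions. Of 25 tested, 2 were called higher in KO, 7 lower and 16 neither, with a median log2 ratio of -0.25. The shares over all tested genes were 8.92% higher and 8.56% lower. The authors' deposited table gave 2 of the 25 higher and 6 lower, against 5.56% and 5.34% of all tested genes. Cdh2, Vim and Fn1, which are often used to read an EMT, were called neither higher nor lower. Cdh2, which encodes N-cadherin, had 1913 and 1719 normalised reads in KO, against 1318 and 1823 in WT, so that the genotypes overlapped. Vim, the intermediate filament vimentin, had 20955 and 40198 in KO, against 32671 and 56092 in WT, a ratio of 0.689 with wide and overlapping libraries. Without the shallower KO library that ratio was 0.472.

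Fn1, which encodes fibronectin, had 96682 and 51322 normalised reads in KO, against 46070 and 56059 in WT, and the genotypes overlapped. The contractile and matrix genes Acta2, Tagln and Tnc were far lower. Acta2, smooth muscle actin, had 579 and 640 in KO, against 31371 and 51277 in WT, 67.8-fold lower with an adjusted p of 3.88e-10 in the authors' deposited table.

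Tagln, the actin binding protein transgelin, had 46.0 and 98.5 normalised reads in KO, against 3153 and 8294 in WT, 79.2-fold lower (adjusted p of 0.00484 in the authors' deposited table). It was 124-fold lower when the shallower KO library was left out, and 43.6-fold lower when the shallower WT library was. Tnc, which encodes the matrix protein tenascin C, had 1063 and 444 in KO, against 52497 and 35757 in WT, 58.6-fold lower (adjusted p of 8.00e-16 in the authors' deposited table), and 99.4-fold lower without the deeper KO library. Cdh11, a cadherin of mesenchymal cells, was the reverse case, with 924 and 460 in KO, against 41.4 and 25.8 in WT. It was 20.6-fold higher, with an adjusted p of 0.00221 in the authors' deposited table, and 13.7-fold higher without the deeper KO library.

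Genes reported to be activated by TWIST1 gave no call, with 6 tested, 0 higher and 0 lower, against 8.92% and 8.56% of all tested genes. Their median log2 ratio was -0.03. The authors' deposited table also gave 0 and 0, and so did limma, while both gave 0 higher and 1 lower at an unadjusted p of 0.05. That cutoff was passed by 9.39% of tested genes as higher and 9.98% as lower in the authors' deposited table, and by 14.8% and 14.2% with limma. Dnm3os, the host transcript of miR-199a and miR-214 and one of these TWIST1 genes, had 716 and 371 normalised reads in KO, against 491 and 445 in WT. Its genotypes overlapped, with a ratio of 1.16.

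**Figure D5:**
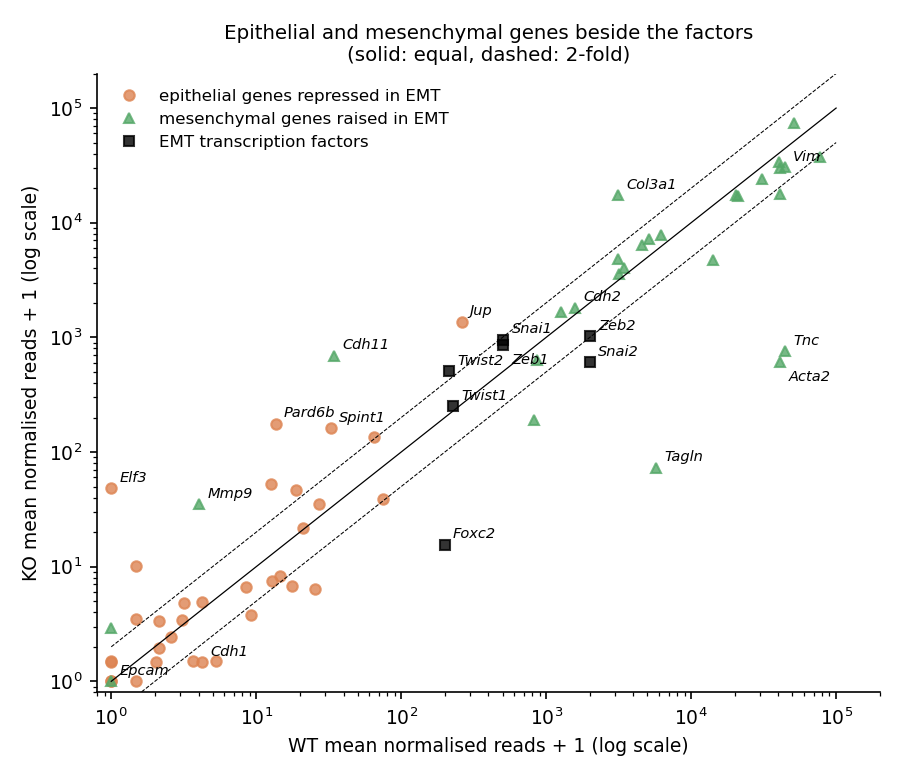
Mean normalised reads plus 1 in KO (vertical, log axis) against WT (horizontal, log axis) for the 7 EMT factors, the 33 epithelial genes and the 28 mesenchymal genes, with a solid line at equal levels and dashed lines at 2-fold either way. Foxc2, Acta2, Tagln and Tnc lie far below the solid line and Elf3, Pard6b and Cdh11 above it, while Cdh1 and Epcam sit in the lower left corner.

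The E-box bound by SNAIL and ZEB proteins was read in the promoters available. Whether it links these factors to the epithelial genes in these cells was not tested. No window was available for Cdh1, Snai2, Zeb1 and Foxc2, so their promoters were not read. The letters searched were CACCTG and its reverse complement CAGGTG, that is, both strands, in 250 bases before each start (RefSeq, GRCm38.p6). They were present in 17.2% of 32851 windows, or 19.4% of 27025 genes. Of the epithelial genes, 14 of 22 with a window (63.6%) held them. These genes had been listed as epithelial genes repressed in an EMT, so that share is no independent result for the motif. Among the EMT factors, the Snai1 promoter held 1, and those of Twist1, Twist2 and Zeb2 held 0 in these windows. The Snai1 motif lay 126 bases before the start, and the epithelial gene Elf3, with 0 reads in WT, held 1 and Pard6b 2. Of the 7 epithelial genes called higher in KO, 6 had a window, of which 3 held the motif (Elf3, Pard6b and Muc1) and 3 did not (Jup, Spint1 and Grhl1). The WT means of Elf3, Pard6b, Muc1 and Grhl1 were under the minimum, and these genes passed it only through KO. This split is therefore no measure of a link between the motif and the calls. The motif is in capitals with 10 bases on each side, on the minus strand of chromosome 1 for Elf3 and on the plus strand of chromosome 2 for Snai1 and Pard6b.
Snai1 E-box, chr2:167538059-167538084: agcccaggcgCACCTGctccggtctc
Elf3 E-box, chr1:135258597-135258622: atatgcaaatCACCTGggacagggag
Pard6b E-box 1, chr2:168080853-168080878: gccgcgggcgCAGGTGcgcgcttccc
Pard6b E-box 2, chr2:168080908-168080933: gccgaagctgCAGGTGagcgcgcgca

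Epcam, which had 0 reads in both genotypes, also held 2 such motifs. These matches show where the letters lie and say nothing of binding in these cells.

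The genes lie at chr2:167538195-167542814 (Snai1), chr16:14705852-14709385 (Snai2), chr12:33957671-33959829 (Twist1), chr1:91801461-91848028 (Twist2), chr18:5591860-5775467 (Zeb1), chr2:44983632-45117395 (Zeb2, minus strand) and chr8:121116171-121118895 (Foxc2) in GRCm38, the others on the plus strand. Some annotated genes overlap the EMT factors (GENCODE M21), and whether the authors counted by strand is not given in the sources used here. Twist2, Zeb1 and Zeb2 each have at least 1 gene on the opposite strand and 1 on their own strand, and Foxc2 has 1 on its own strand. Of the genes opposite to Zeb1, Gm16147 was not analysed here, and Gm10125 had 15.6 and 3.98 normalised reads in KO, against 1.93 and 0 in WT, far below the level of Zeb1. Reads of genes on opposite strands cannot be told apart without strand. Strand would not separate any of these 4 factors from a gene on its own strand. The values of these 4 factors carry that uncertainty.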

How the data were processed

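PolyA RNA of 1 labelled Dicer KO and 1 labelled WT sample was measured. The authors deposited 1 comparison with 23227 symbols; 5924 had no reads. Tools listed in the submitters' processing notes are DESeq 1.10.1 and TopHat 1.4.0, and the build is mm9, with no role stated. The counter, annotation and strand setting: not given in the sources used here. The authors' values, per the file headers, are a signal per gene (mean reads after scaling by size factors), a fold ratio, its log2 and p-values with adjusted p-values. Conditions A and B were read as WT and KO from the order in the comparison's title, and every direction rests on that.

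Every mean could be written with whole numbers of 2 steps, so the reads of 2 libraries per genotype were recovered (tolerance 1e-07 of a read). For 100% of genes above 0 exactly 1 pair of read numbers was found. The column holds means over 2 libraries, so no count model was run, although the design had foreseen 1 library per genotype. Nothing says that these libraries come from separate cultures, and p-values then measure only a spread that may be technical. Libraries are named by depth within a genotype.

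Genes with a mean of at least 20 were called at a ratio of 2 or 0.5 with an exact (Clopper-Pearson) 95% interval excluding 1. The authors' adjusted p was read at 0.1. limma 3.58.1 (R 4.3.3) used log2(value + 1) with a trend and adjusted over the 11710 tested genes; its fold changes are on that scale. Ratios were computed with Python 3.11.15 and scipy 1.17.1. The members and gene lists were chosen with earlier results of these data known. Named list genes are those with the largest change among called ones, up to 4 a list. Cdh1, Cdh2, Vim, Fn1, Dicer1, Tcf3, Ctbp1, Hmga2 and Dnm3os were named whatever their values. Epcam, Met, Msln, Krt19, Id2, Muc1, Grhl1, Gm10125, Thy1, Mitf and Sox10 were added after their values were seen. The symbols Ajuba, Patj and Spi1 were matched as Jub, Inadl and Sfpi1. Site and promoter coordinates are GRCm38, not the authors' build, and were not matched to the deposited values except by symbol. Alternatives were other thresholds, tests and scalings, and leaving out each library. Matches to 1 microRNA seed are not reported here.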

Additional observations from a re-analysis of the deposited data

How the results depend on the processing

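Under 5 alternatives for each of the 7 EMT factors (4 left-out libraries and scaling to total reads), 35 ratios were recomputed, of which 32 stayed on their side of the threshold, 2 crossed into a call (Zeb2 at 0.495 and 0.389), 1 lost its call (Twist2 at 1.89) and 0 changed direction. Scaling to total reads shifted the log2 ratio per gene by a median of 0.06, taken over all genes with reads in both genotypes, tested or not. Leaving out 1 library gave 0 to 1 EMT factors higher and 2 to 3 lower. At a 1.5-fold threshold 3 factors were higher (Snai1, Twist2 and Zeb1) and 3 lower, with 2030 and 2092 genes in all, against 1044 and 1002 at 2-fold. With no minimum mean, 1571 genes were lower. The authors' deposited table gave 1 factor lower at an adjusted p of 0.1 (651 genes higher and 625 lower) and at 0.05 (525 and 504). limma gave 1 factor lower with a pseudocount of 1 (540 genes higher and 485 lower) and of 8 (545 and 501). With the depth rank as a replicate block, limma gave 3 factors higher and 3 lower (adjusted p of 0.00584 for Snai1, 0.0109 for Twist2 and 0.0229 for Zeb1, and of 0.00182 for Snai2, 0.0354 for Zeb2 and 0.00245 for Foxc2), with 2164 and 2077 genes in all. That pairing was read from the data, where the differences between the deeper and the shallower library correlated between KO and WT across 11710 genes (Pearson's r = 0.571, genes are not independent replicates), and the labels give no replicate numbers that pair libraries. The cause of these changes was not tested. Genes with few reads, such as Foxc2 in KO, are limited by depth, and 1 clone per genotype limits every comparison.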
